A study of Homo sapiens with 23 samples.

Results

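Chromosomes 3 and 18 are the chromosomes on which peaks of phosphorylated MCM2 were thinnest in HCT116 cells, an established human colon carcinoma line with defective mismatch repair. Described here are the peaks of 7 HCT116 lists whose middle lies on hg19 chromosome 3 or 18, which are 67223 of the 889703 peaks of those lists on chromosomes 1 to 22 and X, and of 1741457 in the 21 lists of the whole series. The chromosomes were chosen by the measured density of HCT116 pMCM2 peaks, so that density, and every overlap with that list, is given as a description and with no test. Chromosomes 1 and 12, where the same density was high, hold 131759 peaks of the 7 lists and serve for comparison.

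The series mapped replication start sites and chromatin binding by sequencing in HCT116 and in K562, a chronic myelogenous leukemia line. Start sites were mapped as nascent strands, newly made DNA that resists λ-exonuclease. The 4 HCT116 nascent-strand lists came from a clone depleted of SIRT1, a depleted clone rescued with wild-type SIRT1, a depleted clone rescued with the T530A mutant of SIRT1, and wild-type cells given 200 nM aphidicolin for 24 h and then grown for 24 h without it. The first 3 lists each rest on 1 clone, and none of the 4 is from untreated wild-type cells. The 3 HCT116 ChIP lists came from unsynchronised, untreated wild-type cells and used antibodies to SIRT1 phosphorylated at T530 (pSIRT1), MCM2 phosphorylated at S139 (pMCM2) and histone H4 acetylated at lysine 16 (H4K16ac). The K562 pMCM2 lists came from wild-type cells separated by elutriation into fractions of G1, of S phase (early, middle and late) and of G2. Each group was 1 library, so there is no spread between replicates, no p-value was computed, and every interval below is a 95% exact binomial (Clopper-Pearson) interval that covers counting error only. Neighbouring peaks are not independent, so these intervals are too narrow as a measure of what another culture would give.

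MCM2 is a subunit of the ring-shaped helicase that is loaded on DNA in G1 and unwinds it during S phase, and cell-cycle kinases phosphorylate it around the time the helicase is activated. More helicases are loaded than are used, so start sites and helicase subunits need not coincide. SIRT1 is an NAD-dependent deacetylase with H4K16ac among its substrates, and H4K16ac marks open chromatin. Aphidicolin inhibits replicative DNA polymerases and slows forks.

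The pMCM2 peaks stood apart from the other lists on these chromosomes. Density was taken as peaks per Mb of covered sequence, that is of 100 kb bins that hold the middle of a peak of any of the 21 lists, and was divided by the density of the same list over chromosomes 1 to 22 and X. The pMCM2 list had 4462 peaks on chromosome 3, or 22.9 per Mb, a density 0.430 times that of the genome (0.417 to 0.442). On chromosome 18 it had 1870 peaks, or 24.97 per Mb, at 0.468 times (0.448 to 0.490). These were the lowest and second-lowest densities of the 23 chromosomes, and they are the values that chose them. Chromosome 13, at 0.508, and chromosome 4, at 0.603, lay just outside the choice. Chromosomes 1 and 12 stood at 1.43 and 1.39 times the genome.

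Start sites were only slightly thinner there than elsewhere. The depleted list had 6573 start sites on chromosome 3, at 0.874 times its genome density (0.853 to 0.894), and 2817 on chromosome 18, at 0.974 times (0.939 to 1.01). The wild-type rescue list stood at 0.879 and 0.888 times, the T530A rescue at 0.884 and 0.914, and the aphidicolin list at 0.949 and 0.970. All 4 lists thus had between 0.874 and 0.974 times their genome density on either chromosome, and in none of them did chromosome 3 or 18 rank among the 4 lowest of the 23. On chromosome 18, the intervals of the depleted and aphidicolin lists reached 1.

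The other ChIP lists lay between these values. H4K16ac peaks numbered 13593 on chromosome 3, at 0.861 times their genome density (0.847 to 0.875), and 5032 on chromosome 18, at 0.829 times (0.807 to 0.852). For pSIRT1 the counts were 6271 and 2830, at 0.753 times (0.735 to 0.772) and 0.884 times (0.852 to 0.917). Against chromosomes 1 and 12, the 2 chromosomes together held 0.312 times the pMCM2 density, 0.731 times the pSIRT1 density, 0.738 times the H4K16ac density and 0.783 to 0.821 times the start-site densities. The pMCM2 ratio therefore fell well below those of the other 6 HCT116 lists, whichever reference was used: against the other 21 chromosomes it was 0.416, with 0.772 for pSIRT1 and 0.839 for H4K16ac. Only the pMCM2 ratio contains the density that chose the chromosomes, so a lower value there follows in part from the choice.

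**Figure D1:**
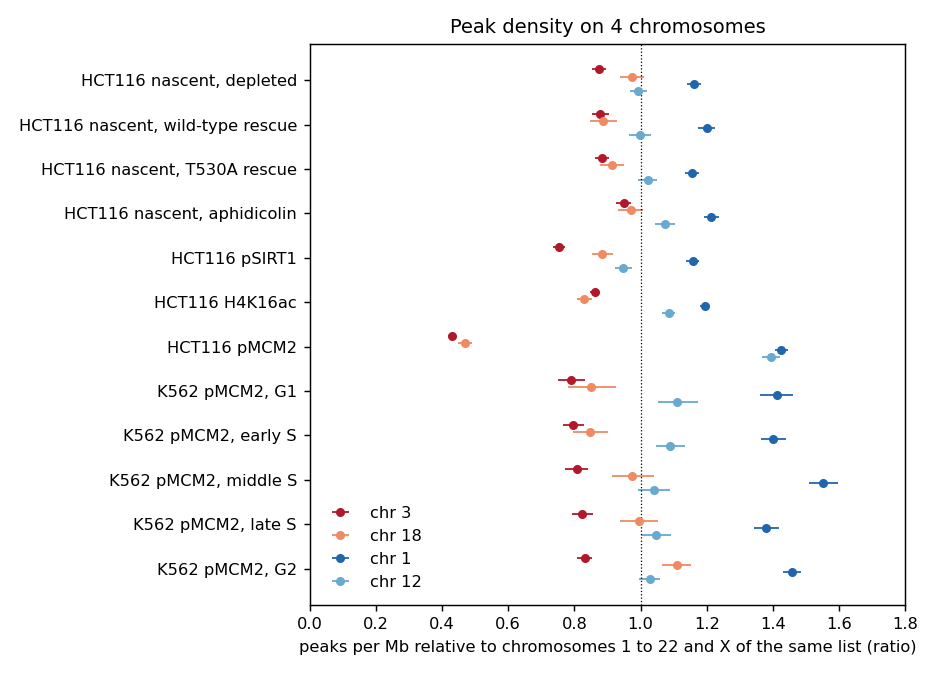
Peaks per Mb on chromosomes 3, 18, 1 and 12 (points, by colour) relative to chromosomes 1 to 22 and X of the same list (x axis, ratio), for the 7 HCT116 lists and the 5 K562 pMCM2 lists; bars are 95% intervals for counting error. HCT116 pMCM2 on chromosomes 3 and 18, at 0.430 and 0.468, lies left of all other points.

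Chromosomes with a like amount of H4K16ac are set beside chromosomes 3 and 18 as a description only. Those 2 were chosen as the lowest in pMCM2 density, so no other chromosome could share their values. On 7 chromosomes the H4K16ac density lay between 0.8 and 1.0 times that of the genome. Among these, chromosomes 3 and 18 had pMCM2 at 0.430 and 0.468 times, while chromosomes 2, 6, 9 and 21 had 0.930, 0.888, 1.15 and 1.06 times. Chromosome 7, at 0.730, was the nearest to them. Chromosomes 13 and 4 fell outside this range, with H4K16ac at 0.726 and 0.657 times and pMCM2 at 0.508 and 0.603 times. Counted per H4K16ac peak, pMCM2 peaks numbered 0.328 on chromosome 3 and 0.372 on chromosome 18, against 0.460 on chromosome 13, 0.785 on chromosome 1 and 0.845 on chromosome 12.

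In K562 cells the same antibody did not give the same gap. Chromosome 3 stood at 0.790 times the genome density in G1 (0.749 to 0.833), 0.797, 0.807 and 0.824 in the early, middle and late fractions of S, and 0.831 in G2 (0.808 to 0.854). Chromosome 18 stood at 0.851 in G1 (0.781 to 0.924), 0.847, 0.975 and 0.995 in the early, middle and late fractions of S, and 1.11 in G2 (1.07 to 1.15). In K562, chromosome 3 was thus below the genome in every phase, and chromosome 18 was below it in G1 and early S, overlapped it in middle and late S and was above it in G2. The G2 value did not hold for strong peaks: in the highest-scoring 25% of that list chromosome 18 stood at 0.897 times. In these 5 lists chromosome 4 was the lowest of the 23 chromosomes. The K562 lists are shorter than the HCT116 list, and cell line, library and depth cannot be told apart in this comparison.

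Along chromosomes 3 and 18 the low pMCM2 density was spread over most bins rather than held in a few. In 5 Mb bins with at least 25 of 50 covered 100 kb bins, a bin was called sparse under 0.5 times the median of the 569 genome bins and dense above 2 times. Of the 54 bins of the 2 chromosomes, 32 (59.3%) were sparse for pMCM2, 23 of 39 on chromosome 3 and 9 of 15 on chromosome 18, where 16.7% of all genome bins were. None of the 54 was dense, whereas 26 of the 71 bins of chromosomes 1 and 12 were dense and 1 was sparse. The median bin held 0.405 times the genome's median on chromosome 3 and 0.428 on chromosome 18, and the ranges were 0.141 to 1.52 and 0.171 to 1.38. Since pMCM2 density chose the chromosomes, nothing further is read from these counts.

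The other HCT116 lists had sparse bins on chromosomes 3 and 18 about as often as in the genome. Of the 54 bins, 9 were sparse in the depleted list (16.7%) and 9 in the wild-type rescue, where the genome had 19.3% and 19.5%. In the T530A rescue and the aphidicolin list 7 bins each (12.96%) were sparse, beside 17.6% and 16.7% of all bins. For pSIRT1 the count was 18 of 54 (33.3%), beside 30.2% in the genome, and for H4K16ac 15 of 54 (27.8%), beside 21.8%. The pSIRT1 bins differed between the chromosomes, with 16 of 39 sparse on chromosome 3 and 2 of 15 on chromosome 18.

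Sparse bins of the K562 pMCM2 lists followed the same division. The lists of G1 and of early and middle S had 16 sparse bins each of the 54 (29.6%), where 23.6%, 23.2% and 27.4% of all genome bins were sparse. Late S had 11 (20.4%) and G2 had 10 (18.5%), where the genome had 20% and 19.3%. In G2 none of the 15 bins of chromosome 18 was sparse, and its median bin held 1.42 times the genome's median, while the median bin of chromosome 3 held 0.776 times.

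The pMCM2 profile along chromosome 3 resembled those of the other HCT116 lists, and on chromosome 18 it resembled that of H4K16ac less. On chromosome 3 the pMCM2 density of the 39 bins rose and fell with H4K16ac (Spearman rho 0.921), pSIRT1 (0.892), the 4 nascent-strand lists (0.833 to 0.882) and the 5 K562 pMCM2 lists, from 0.754 (G2) to 0.920 (early S). On chromosome 18, with 15 bins, rho was 0.484 with H4K16ac, 0.829 with pSIRT1, 0.639 to 0.842 with the nascent strands and 0.670 (G2) to 0.847 (G1) with the K562 pMCM2 lists. On chromosomes 1 and 12 rho with H4K16ac was 0.909 and 0.885. These are descriptions across bins of the same libraries, which share mappability, gene density and base composition.

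The densest pMCM2 bin of chromosome 3, chr3:50000001-55000000, held 337 pMCM2 peaks, 1.52 times the median bin of the genome. It also held 583 H4K16ac peaks (1.52 times), 371 pSIRT1 peaks (2.28 times) and 202 wild-type rescue start sites (1.65 times). In the other 3 bins of chromosome 3 with a pMCM2 ratio above 1, the H4K16ac ratio was higher, at 1.79 to 2.16. The second densest, chr3:195000001-200000000 at the end of the chromosome, had 165 pMCM2 peaks in 30 covered 100 kb bins (1.24 times), with H4K16ac at 1.79 times and pSIRT1 at 1.91 times. On chromosome 18 the densest bins were chr18:45000001-50000000 with 306 pMCM2 peaks (1.38 times, H4K16ac 1.56 times, pSIRT1 2.18 times) and chr18:70000001-75000000 with 270 (1.22 times, H4K16ac 1.13 times, pSIRT1 1.798 times). The K562 G2 list stood at 0.903 and 0.883 times in the 2 bins of chromosome 3, and at 2.14 and 1.44 times in those of chromosome 18.

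The sparsest bins were poor in other marks too, though not all to the same extent. In chr3:80000001-85000000 there were 30 pMCM2 peaks (0.141 times), 32 H4K16ac peaks (0.0868 times), 33 pSIRT1 peaks (0.211 times) and 24 wild-type rescue start sites (0.205 times). In chr3:100000001-105000000 there were 41 pMCM2 peaks (0.185 times), 43 pSIRT1 peaks (0.264 times), 48 wild-type rescue start sites (0.393 times) and 199 H4K16ac peaks (0.518 times). The depleted, T530A rescue and aphidicolin lists stood at 0.362, 0.385 and 0.414 times in that bin, and K562 G2 pMCM2 at 0.209 times. In chr18:25000001-30000000 there were 38 pMCM2 peaks (0.171 times), with H4K16ac at 0.427 times, pSIRT1 at 0.301 times and the wild-type rescue at 0.434 times. In chr18:60000001-65000000 there were 70 (0.315 times), with H4K16ac at 0.484 times and pSIRT1 at 0.546 times. The first of these bins was thus poor in all 7 lists, and the second was sparse in every HCT116 list except H4K16ac. In all bins but the first, pMCM2 was lower, relative to the genome, than pSIRT1 and H4K16ac.

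On chromosomes 3 and 18, runs of neighbouring sparse bins were longer for pMCM2 than for H4K16ac and pSIRT1. The length of the pMCM2 runs follows in part from the density that chose the chromosomes. The longest on chromosome 3 was chr3:60000001-90000000, 6 bins or 30 Mb, and on chromosome 18 chr18:20000001-40000000, 4 bins or 20 Mb. For H4K16ac the longest runs were 3 and 2 bins and for pSIRT1 4 and 1 bins. For K562 G2 pMCM2 the run on chromosome 3 was 5 bins, chr3:95000001-120000000, and chromosome 18 had none. On chromosome 12 the longest run for HCT116 pMCM2 was 1 bin, and chromosome 1 had no sparse bin.

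Set against H4K16ac bin by bin, pMCM2 was low over nearly the whole of both chromosomes. The number of pMCM2 peaks per H4K16ac peak, as a ratio to the median genome bin, was below 1 in 49 of the 54 bins and below 0.5 in 28 of them (51.9%), where 8.61% of all genome bins were below 0.5. On chromosome 3 the median was 0.482, with 22 of 39 bins below 0.5, and on chromosome 18 it was 0.570, with 6 of 15. On chromosomes 1 and 12 the median was 1.23 and none of the 71 bins fell below 0.5. This ratio contains the pMCM2 density that chose the chromosomes.

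**Figure D2:**
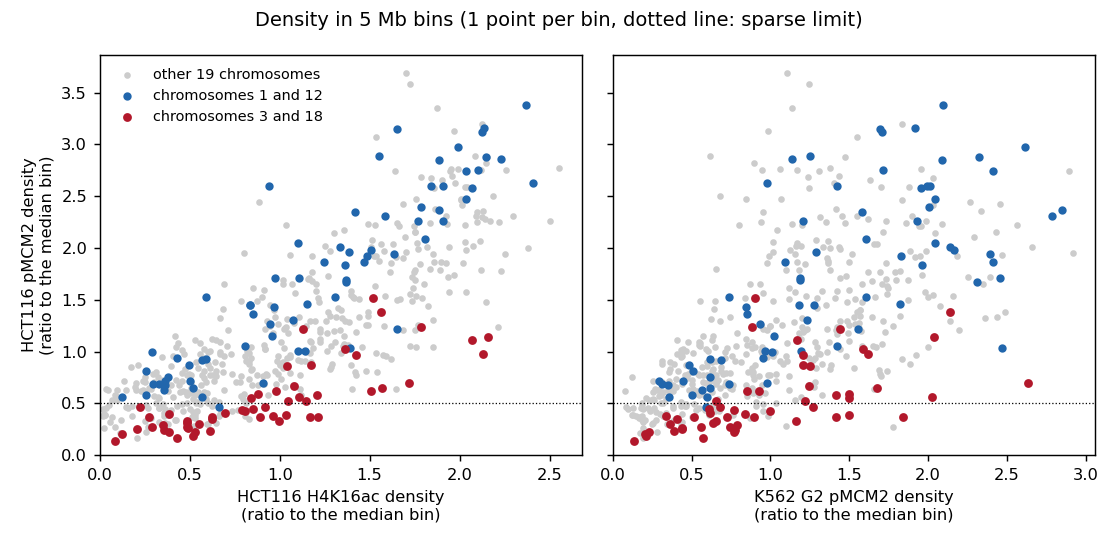
Density of HCT116 pMCM2 peaks in 5 Mb bins (y axis, ratio to the median genome bin) against HCT116 H4K16ac (left) and K562 G2 pMCM2 (right), 1 point per bin; chromosomes 3 and 18 in red, 1 and 12 in blue, all others in grey, with the sparse limit of 0.5 as a dotted line. Most red points lie in the lower part of the cloud and some lie inside it, with none above 1.52 on the y axis.

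Gaps between neighbouring pMCM2 peaks were wider on the sparse chromosomes, which follows in part from the density that chose them. The median distance from one peak to the next was 18.6 kb on chromosome 3 and 17.6 kb on chromosome 18, against 5.2 kb on each of chromosomes 1 and 12, and the 90th percentile was 111.6 and 99.2 kb against 27.8 and 29.4 kb. For H4K16ac the median gaps were 3.96 kb on each of chromosomes 3 and 18 and 2.87 and 3.30 kb on chromosomes 1 and 12. The longest pMCM2 gaps, chr3:90369001-93659200 (3290.2 kb) and chr18:15169601-18759400 (3589.8 kb), span the centromeres and hold little covered sequence. K562 G2 pMCM2 had gaps of 3170.2 and 3147.8 kb that overlap these. Within the gap of chromosome 18 lay 7 start sites of the depleted list, 4 pSIRT1 peaks, 10 H4K16ac peaks and 10 K562 G2 pMCM2 peaks, so some of it was mapped and peaks were called there.

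Gaps of 500 kb or more through well-covered sequence, with at least 90% of 100 kb bins covered, also occurred. The longest on chromosome 3 was chr3:174642601-175164000 (521.4 kb), with 2 to 4 start sites in each nascent-strand list, 3 pSIRT1 peaks and 4 H4K16ac peaks. On chromosome 18 it was chr18:27786801-28332600 (545.8 kb), with 1 to 5 start sites per list, 4 pSIRT1 peaks and 5 H4K16ac peaks. No such pMCM2 gap existed on chromosome 1 or 12, which follows in part from the choice by pMCM2 density. For H4K16ac the longest were 1852.8 and 1417.7 kb on chromosomes 3 and 18, and 1141.1 and 797.6 kb on chromosomes 1 and 12.

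The pMCM2 peaks of chromosomes 3 and 18 were also narrower. Their median width was 600 bp on each (quartiles 400 and 1000 bp), against 1000 bp on chromosome 1 and 1200 bp on chromosome 12. Peaks at the smallest width of 200 bp made up 8.49% on chromosome 3 and 8.18% on chromosome 18, against 2.68% and 3.18%. Peaks over 2000 bp made up 5.31 and 5.401% against 19.6 and 20.4%. Over all chromosomes the median width was 1000 bp, with 4.03% of peaks at 200 bp and 14.7% over 2000 bp. Chromosome 13, next in pMCM2 density, had the same median of 600 bp, with 7.02% of peaks at 200 bp. Fewer peaks and narrower peaks together left 1.93% of the covered length of chromosome 3 and 2.13% of chromosome 18 in pMCM2 peaks, against 10.8% of each of chromosomes 1 and 12.

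Reads per peak were lower and reads per kb higher. The median pMCM2 peak held 40 reads on chromosome 3 and 41 on chromosome 18, against 51 on chromosomes 1 and 12, which placed it at percentile 41.6 and 43.0 of its own list against 54.4. Divided by width, the order turned: 67.5 and 65.0 reads per kb against 52.5 on each of chromosomes 1 and 12, the highest and second highest medians of the 23 chromosomes, followed by 60 on chromosomes 7 and 13. The smallest peaks of 200 bp had at least 16 reads on every chromosome, and at 400 bp the fewest reads were 19 on chromosomes 3, 18, 1 and 12 alike. At 600 bp the fewest were 20 on chromosome 3, 22 on chromosome 18, 19 on chromosome 1 and 20 on chromosome 12. The lowest read count in the list was thus the same on these 4 chromosomes at 200 and 400 bp, and differed by up to 3 reads at 600 bp. Whether the background of the sheared DNA control differed between chromosomes was not tested.

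In the other lists, peaks of chromosomes 3 and 18 were narrower than those of chromosomes 1 and 12 by a smaller factor, while their percentiles on chromosome 18 were lower by amounts that in several lists came near that of pMCM2 (43.0 against 54.4). Start sites of the depleted list had a median width of 2400 bp on chromosome 3 and 2200 bp on chromosome 18 against 2600 bp, and stood at percentile 43.7 and 41.3 against 49.7. Wild-type rescue start sites were wider, at 3600 and 3400 bp against 3800 bp, and stood at percentile 44.9 and 40.4 against 50.3. In the T530A rescue the percentiles were 43.3 and 41.9 against 50.4, and after aphidicolin 45.5 and 42.5 against 51.6. For pSIRT1 the widths were 1600 and 1400 bp against 1800 bp and the percentiles 45.8 and 41.6 against 51.6, and for H4K16ac 729 and 706 bp against 819 bp and 45.9 and 47.8 against 49.6. Ratios of median width for the 2 chromosomes together against 1 and 12 were 0.846 to 0.917 for start sites, 0.778 for pSIRT1, 0.885 for H4K16ac and 0.5 for pMCM2. In K562 the pMCM2 ratio was 0.778 to 0.889 over the 5 phases, so the narrowing in HCT116 was greater than in any K562 phase. Chromosome 3 had the same median width as chromosome 12 alone in the depleted (2400 bp), wild-type rescue (3600 bp), T530A rescue (2200 bp) and pSIRT1 (1600 bp) lists. In the T530A rescue chromosome 18 also had 2200 bp. The median widths of chromosomes 3 and 12 were equal in K562 G1, early S and G2 as well. For H4K16ac the percentile of chromosome 18 equalled that of chromosome 12, at 47.8.

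Start sites on chromosomes 3 and 18 carried a pMCM2 peak less often than those on chromosomes 1 and 12 in all 4 nascent-strand lists. A start site was counted when it shared at least 1 bp with a pMCM2 peak. In the depleted list the share was 28.9% of 6573 start sites on chromosome 3 (27.8 to 30.0) and 30.4% of 2817 on chromosome 18 (28.7 to 32.2), against 66.9% on chromosome 1 and 68.3% on chromosome 12, and 53.6% over all chromosomes. In the wild-type rescue it was 29.6 and 30.9% against 68.9 and 68.3%, with 54.0% over all. In the T530A rescue it was 25.7 and 26.2% against 61.5 and 60.7%, with 47.7% over all. After aphidicolin it was 23.9 and 25.5% against 60.9 and 60.5%, with 47.0% over all. The ratio of chromosomes 3 and 18 to 1 and 12 was close among the 4 lists, at 0.435, 0.436, 0.422 and 0.4. It follows in part from the density that chose the chromosomes, and nothing further is read from it.

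The same start sites carried pSIRT1 and H4K16ac only somewhat less often than those of chromosomes 1 and 12. In the depleted list 55.8% of start sites on chromosome 3 and 59.0% on chromosome 18 overlapped pSIRT1, against 65.9 and 60.0% on chromosomes 1 and 12. With H4K16ac the shares were 73.0 and 67.4% against 82.4 and 77.9%. Across the 4 lists the pSIRT1 share on chromosome 3 ran from 43.2% (aphidicolin) to 55.8% (depleted) and on chromosome 18 from 46.7 to 59.0%, and the H4K16ac share from 63.7 to 73.0% and from 59.4 to 67.8%. Relative to chromosomes 1 and 12, the 2 chromosomes together had 0.836 to 0.893 times the pSIRT1 share and 0.854 to 0.898 times the H4K16ac share. These ratios do not use pMCM2, and all 8 lay above the 0.4 to 0.436 of pMCM2. That pMCM2 value is low in part because pMCM2 density chose the chromosomes, so the contrast is a description only.

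**Figure D3:**
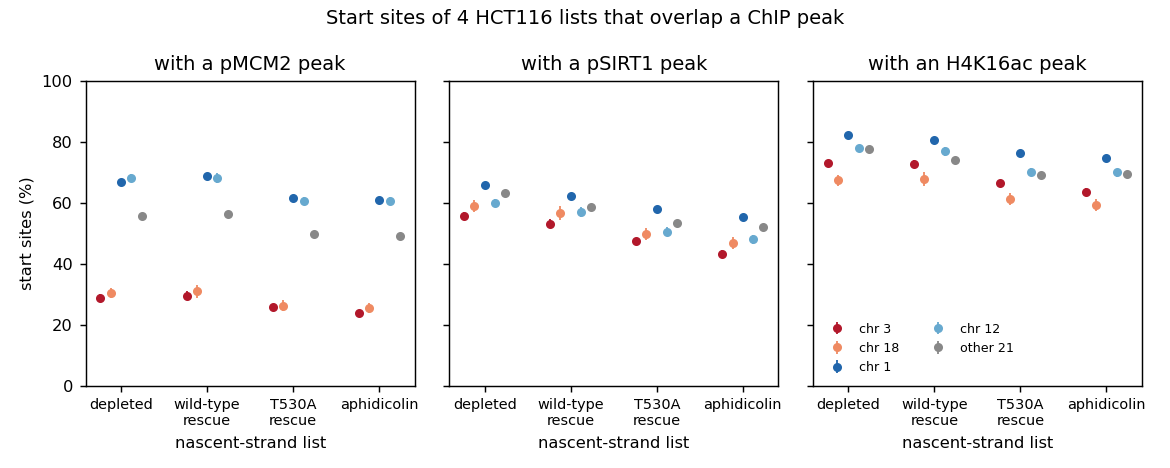
Share of start sites (y axis, percent) that share at least 1 bp with a pMCM2 (left), pSIRT1 (middle) or H4K16ac peak (right), for the 4 HCT116 nascent-strand lists (x axis) on chromosomes 3, 18, 1, 12 and the 21 chromosomes other than 3 and 18; bars are 95% intervals for counting error. For pMCM2 the points of chromosomes 3 and 18 (23.9 to 30.9%) lie apart from the rest, and for pSIRT1 and H4K16ac they lie nearer to them.

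Relative to the covered length in pMCM2 peaks, the overlap on chromosomes 3 and 18 stood higher than on chromosomes 1 and 12. The middle of a depleted-list start site lay inside a pMCM2 peak in 10.7% of cases on chromosome 3 and 12.96% on chromosome 18, which is 5.53 and 6.08 times the share of covered length in pMCM2 peaks. On chromosomes 1 and 12 the shares were 37.5 and 42.2%, or 3.46 and 3.92 times. For pSIRT1 the same multiples were 5.92 and 6.21 against 4.10 and 4.985, so higher multiples were not particular to pMCM2. The pMCM2 multiples contain the density that chose the chromosomes, and the cause of the higher values was not tested.

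Seen from the pMCM2 peaks, the raw shares on chromosomes 3 and 18 were near those on chromosomes 1 and 12. Of the pMCM2 peaks on chromosome 3, 51.8% overlapped a depleted-list start site (50.3 to 53.2), and on chromosome 18 51.3% (49.0 to 53.6), against 52.2% on chromosome 1 and 44.7% on chromosome 12. The shares with pSIRT1 were 46.8 and 47.0% against 49.3 and 42.5%, and with H4K16ac 66.6 and 59.6% against 69.6 and 64.1%. Peaks of the 7 lists coincided at 722 pMCM2 peaks of chromosome 3 (16.2%) and 243 of chromosome 18 (12.995%), against 17.3 and 13.3%. Over all chromosomes the share was 14.9%. A pMCM2 peak with no peak of any other HCT116 list made up 19.7 and 19.4% against 16.1 and 19.9%, with 18.6% over all chromosomes. By these raw shares, the pMCM2 peaks that were present shared their places with the other lists about as often as on chromosomes 1 and 12. The shares were not adjusted for peak width or covered length.

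Peaks shared by all 7 lists were therefore few per Mb. They numbered 3.71 per Mb on chromosome 3 and 3.24 on chromosome 18, against 13.2 on chromosome 1 and 9.91 on chromosome 12. Their pMCM2 peaks were the stronger ones of these chromosomes, at median percentile 63.8 and 67.4 of the list, but lower than the 80.4 and 83.7 of chromosomes 1 and 12.

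The share of start sites with pMCM2 was higher in higher score classes on all of these chromosomes. Each list was divided into 4 score classes of equal size over the whole genome. On chromosome 3, the share of depleted-list start sites with pMCM2 was 17.1% in the lowest class, 19.5 and 29.3% in the next ones, and 60.0% in the highest. Chromosome 18 had shares of 18.9, 21.7, 32.9 and 63.0%, and on chromosomes 1 and 12 together 49.1, 56.8, 71.8 and 91.6%. The ratio of chromosome 3 to chromosomes 1 and 12 was 0.348 in the lowest class and 0.655 in the highest, and for chromosome 18 0.385 and 0.688. No order of the difference between classes is read from these ratios, since a share of 91.6% is near its ceiling. The other 3 nascent-strand lists had the same course, with 49.0 to 59.6% in the highest class on chromosome 3 and 12.6 to 16.1% in the lowest. Higher classes hold wider start sites, with a median of 6200 bp against 1200 bp on chromosome 3 in the depleted list, and the part of width in these shares was not tested.

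**Figure D4:**
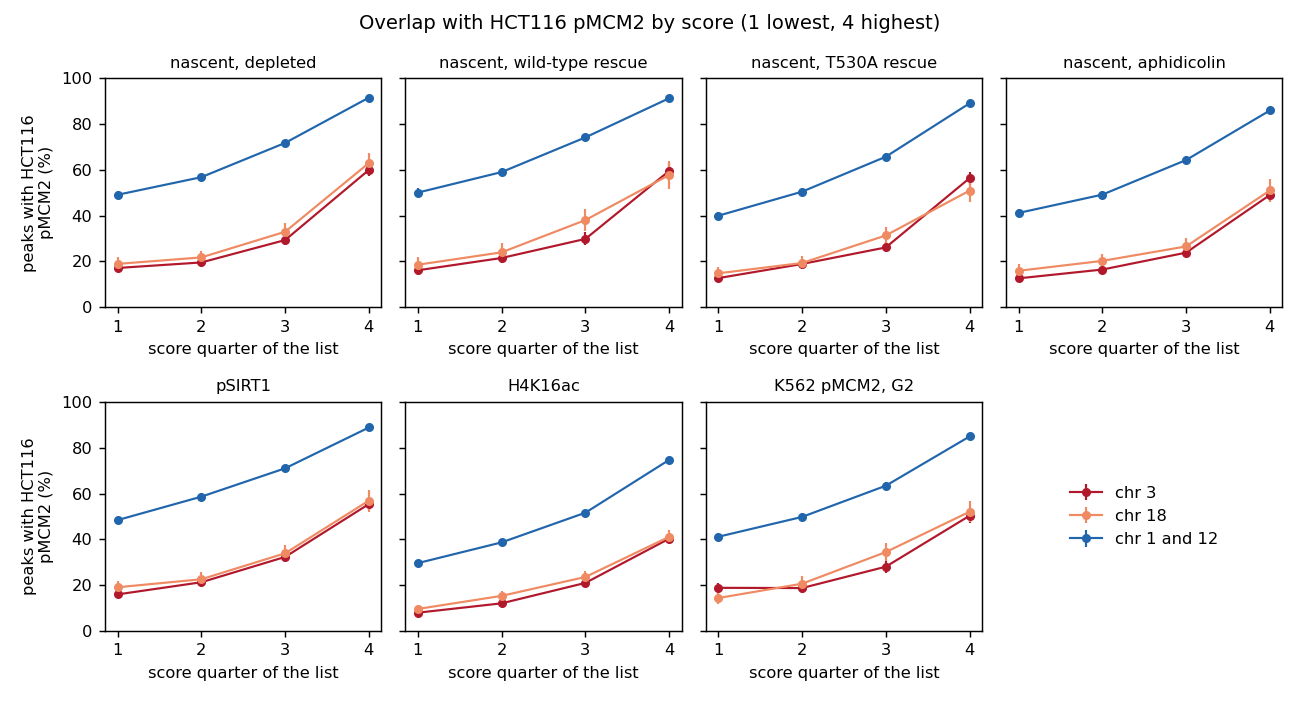
Share of peaks with an HCT116 pMCM2 peak (y axis, percent) in the 4 score classes of each list (x axis, 1 lowest to 4 highest), on chromosomes 3, 18, and 1 and 12 together; bars are 95% intervals for counting error. In every panel the share is lower on chromosomes 3 and 18 in all 4 classes, and for the depleted list it ends at 60.0 and 63.0% against 91.6%.

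Start sites found in all 4 nascent-strand lists had pMCM2 more often than those found once. In the wild-type rescue list, 1844 of the start sites of chromosome 3 were in all 4 lists, and 46.5% of these had pMCM2, against 8.42% of the 558 found in that list alone. For chromosome 18 they were 46.8% of 722 and 11.1% of 208. On chromosomes 1 and 12 they were 84.5 and 35.6%. Start sites of all 4 lists on chromosomes 3 and 18 carried pSIRT1 in 78.4 and 80.1% of cases, beside 82.0% on chromosomes 1 and 12, and H4K16ac in 90.6 and 86.8%, beside 93.0%. Shared start sites of chromosomes 3 and 18 were thus close to those of chromosomes 1 and 12 in pSIRT1 and H4K16ac, and far from them in pMCM2. The distance in pMCM2 follows in part from the density that chose the chromosomes.

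The share with pMCM2 was also lower on chromosomes 3 and 18 among start sites sorted by the marks they overlapped. In the depleted list, 3324 start sites of chromosome 3 overlapped both pSIRT1 and H4K16ac, and 40.6% of them had pMCM2 (38.9 to 42.3). On chromosome 18 the share was 43.3% of 1387 (40.7 to 46.0), and on chromosomes 1 and 12 79.6% of 9073. Over all chromosomes it was 66.4%. Of start sites with neither mark, 9.56% on chromosome 3 and 10.6% on chromosome 18 had pMCM2, against 37.5%, and 25.6% over all chromosomes. With H4K16ac alone the shares were 22.9 and 24.6% against 55.5%, and with pSIRT1 alone 21.3 and 22.6% against 59.2%. Over all chromosomes they were 43.6% with H4K16ac alone and 44.4% with pSIRT1 alone. In each of these classes the share on chromosomes 3 and 18 was below that on chromosomes 1 and 12. A lower share in every class follows in part from the choice by pMCM2 density, and nothing further is read from it.

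Binding sites of the other antibodies behaved as the start sites did. Of the pSIRT1 peaks, 29.7% of 6271 on chromosome 3 (28.6 to 30.9) and 29.5% of 2830 on chromosome 18 (27.9 to 31.3) overlapped pMCM2, against 66.0 and 70.3% on chromosomes 1 and 12. Of the H4K16ac peaks, 19.1% of 13593 (18.5 to 19.8) and 21.4% of 5032 (20.2 to 22.5) did so, against 47.6 and 49.8%. By contrast pSIRT1 peaks overlapped H4K16ac in 85.6% of cases on chromosome 3 and 76.5% on chromosome 18, against 89.6 and 88.0%. The pairing of pSIRT1 with H4K16ac was thus 0.929 times as frequent on the 2 chromosomes as on 1 and 12, and that of pSIRT1 with pMCM2 0.440 times. The latter value contains the pMCM2 density that chose the chromosomes.

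Ordered by these shares, chromosomes 18 and 3 were the lowest of the 23 for pSIRT1, H4K16ac and each of the 4 nascent-strand lists, and chromosome 13 came next each time. For pSIRT1 chromosome 13 stood at 34.3%, for H4K16ac at 24.3% and for the wild-type rescue at 36.4%. The order was fixed in part by the pMCM2 density used for the choice. Among the other chromosomes the order did not follow pMCM2 density throughout. Chromosome X had pMCM2 at 0.683 times the genome density, below chromosome 7 at 0.730. Yet 49.9% of its pSIRT1 peaks overlapped pMCM2 against 41.1% on chromosome 7. The pSIRT1 density itself was 0.202 times the genome on X and 0.936 times on chromosome 7. This pair does not bear on the place of chromosomes 3 and 18. Start sites on X were at 0.192 times the genome density in the depleted list and at 0.0400 to 0.0639 times in the other 3 nascent-strand lists.

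**Figure D5:**
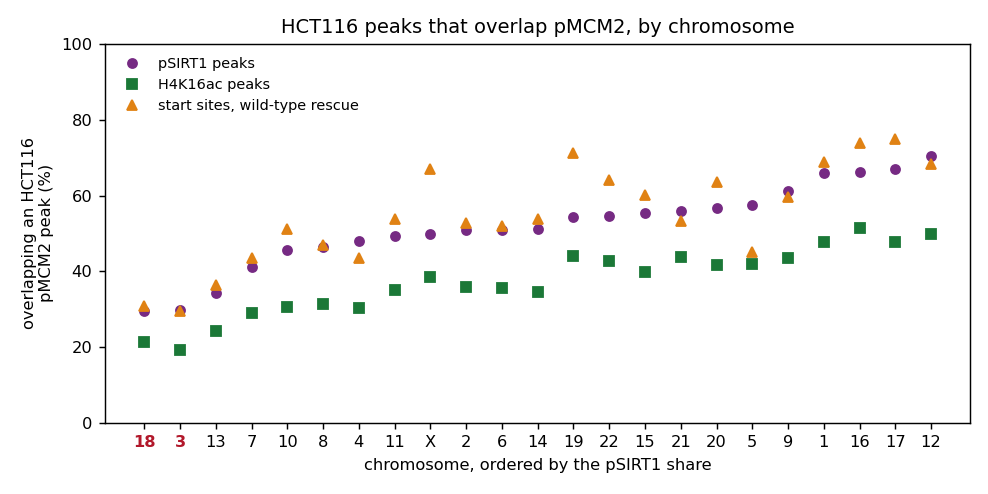
Share of HCT116 pSIRT1 peaks (circles), H4K16ac peaks (squares) and wild-type rescue start sites (triangles) that overlap an HCT116 pMCM2 peak (y axis, percent), for each of 23 chromosomes ordered by the pSIRT1 share (x axis, chromosomes 3 and 18 in red). Chromosomes 18 and 3 lie lowest, at 29.5 and 29.7% for pSIRT1, and chromosome 13 follows at 34.3%.

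K562 pMCM2 peaks on chromosomes 3 and 18 met an HCT116 pMCM2 peak less often than those on chromosomes 1 and 12. In G2, the longest of the K562 pMCM2 lists, the share was 27.5% of 4704 peaks on chromosome 3 (26.2 to 28.8) and 28.8% of 2413 on chromosome 18 (27.0 to 30.6), against 59.2 and 66.3%. In G1 it was 36.5 and 39.3% against 63.3 and 69.1%, and through S phase it was 27.4 and 29.4% (early), 34.5 and 37.2% (middle) and 29.9 and 31.9% (late). Over the 5 phases the ratio of chromosomes 3 and 18 to 1 and 12 was 0.456 (G2) to 0.574 (G1). HCT116 pMCM2 density chose the chromosomes, so a ratio below 1 follows in part from the choice. K562 peaks present in all 5 phases were matched more often, 64.2% of 179 on chromosome 3 and 63.9% of 83 on chromosome 18, against 84.3 and 84.9% on chromosomes 1 and 12. Over all chromosomes 80.0% of such peaks were matched.

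In the other direction the raw shares of the chromosomes were nearer to each other. Of the HCT116 pMCM2 peaks, 47.1% on chromosome 3 and 53.0% on chromosome 18 overlapped a pMCM2 peak of at least 1 K562 phase, against 52.2 and 43.2% on chromosomes 1 and 12 and 44.6% in the genome. Those in all 5 phases made up 2.38 and 2.78%, against 1.86 and 1.61%. Most of the K562 pMCM2 peaks on chromosomes 3 and 18 thus had no HCT116 peak, which follows in part from the choice by HCT116 pMCM2 density. The HCT116 peaks that were there met a K562 peak about as often as elsewhere. These shares were not adjusted for peak width or covered length.

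Within K562, start sites on chromosomes 3 and 18 also had pMCM2 less often than those on 1 and 12, by a factor nearer to 1 than in HCT116. Of the K562 middle S start sites, 40.6% of 4043 on chromosome 3 and 41.3% of 1827 on chromosome 18 overlapped G2 pMCM2, against 42.4% on chromosomes 1 and 12. Early S start sites gave 32.9 and 31.1% against 35.8%, and late S start sites 33.4 and 33.1% against 36.0%. With G1 pMCM2, the shortest of those lists, the shares of early S start sites were 6.11 and 4.92% against 8.10%. The ratio for the 2 chromosomes together ran from 0.706 to 0.963 over the 15 pairs of K562 lists, while the 4 HCT116 ratios were 0.4 to 0.436. The HCT116 ratios contain the pMCM2 density that chose the chromosomes.

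Strong pMCM2 peaks were nonetheless found on both chromosomes. The highest of chromosome 3, chr3:47001201-47002800, held 4130 reads in 1600 bp and ranked 61 among 151777 pMCM2 peaks. It overlapped peaks of all 7 HCT116 lists and of all 5 K562 pMCM2 phases. The next were chr3:14850001-14851200 with 2267 reads, in all 7 HCT116 lists and 2 K562 phases, and chr3:195891401-195892800 with 1933 reads, in 5 HCT116 lists and without a start site in the wild-type rescue or after aphidicolin. All 3 thus lay at or above percentile 99.8 of the list, in narrow peaks of 1200 to 1600 bp.

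On chromosome 18 the highest pMCM2 peak was chr18:105201-112600, with 11981 reads in 7400 bp and rank 8 of the list. The same place gave the highest peak of chromosome 18 for pSIRT1 (3321 reads, rank 2 of 121730), H4K16ac (score 3510, rank 7 of 230760) and the depleted nascent strands (42327 reads, rank 1 of 109990). The wild-type rescue, T530A rescue and aphidicolin lists had no peak there. A region so high with 3 antibodies and in 1 of 4 nascent-strand lists was left in all counts, where it is 1 peak per list. The next pMCM2 peaks, chr18:11246601-11248200 with 2772 reads and chr18:74970401-74972000 with 2124 reads, overlapped peaks of 7 and 6 HCT116 lists and of all 5 K562 phases.

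The strongest start sites of chromosomes 3 and 18 overlapped pMCM2 peaks of very different heights, from the middle of the pMCM2 list to its top. The highest of the depleted list on chromosome 3, chr3:50501801-50575600, spanned 73800 bp with 3950 reads and overlapped 15 pMCM2 peaks, of which the highest had 370 reads (percentile 96.8). The highest of the wild-type rescue on chromosome 3, chr3:14578001-14621600 with 1855 reads, overlapped 5, the highest with 212 reads (percentile 92.6). The highest of the T530A rescue, chr3:195341601-195366800 with 1534 reads, and after aphidicolin, chr3:48616201-48643400 with 1335 reads, each overlapped 4 pMCM2 peaks, of which the highest had 45 reads (percentile 48.7). On chromosome 18 the highest start site of the wild-type rescue (2081 reads), T530A rescue (2657) and aphidicolin lists (2478) lay at the same place, chr18:44542001-44557400 in the wild-type rescue list, where 3 pMCM2 peaks reached 467 reads (percentile 97.8) and H4K16ac a score of 547. The highest of the depleted list on chromosome 18 is the region chr18:105201-112600 described above, with its pMCM2 peak of 11981 reads. A pMCM2 peak was therefore present at each of these start sites. They were wide, at 7400 to 73800 bp, and 1 shared bp was enough to count. The part of width in this overlap was not tested.

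The highest pSIRT1 peak of chromosome 3, chr3:46902001-46923200, had 1129 reads over 21200 bp and rank 63 of its list, and met 1 pMCM2 peak of 73 reads. The highest H4K16ac peak of chromosome 3, chr3:97707233-97708523, had a score of 2280 in 1291 bp and met a pMCM2 peak of 985 reads. Genes at these places are not named, because no hg19 gene annotation was used here.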

How the data were processed

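Peak lists of 21 samples were read on hg19. The build comes from the submitters' processing notes, where MACS and SICER are listed with no version. What aligner or peak threshold was used is not given in the sources used here. Per the labels, peaks were called against sheared genomic DNA of the same line, which was not analysed here. Units were inferred from the values: for 18 lists the authors deposited read counts per region, not scaled between libraries; in the HCT116 H4K16ac list and 2 K562 pSIRT1 lists (middle S, G2) the deposited column is a score. Counts and scores were used only to rank or describe peaks within a list. Library depth is unknown. The HCT116 lists used held 74479 to 230760 peaks and the K562 pMCM2 lists 24359 to 82751.

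Overlapping peaks of a list were merged, chromosomes 1 to 22 and X were kept, and a peak belonged to the chromosome and bin of its middle. A percentile is a peak's rank by score within its list. Overlap and density routines were tested on simulated peaks, with 0 mismatches. Python 3.11.15, numpy 2.4.6, pandas 2.3.3, scipy 1.17.1 and matplotlib 3.10.9 were used.

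The chromosomes, comparisons and alternatives were chosen with earlier results of these data known. Named regions follow a rule: on each chromosome the 3 highest-scoring pMCM2 peaks, the highest peak of every other HCT116 list, the 2 densest and 2 sparsest pMCM2 bins, the longest gap and the longest run of sparse bins. Chosen after seeing the values were the covered gaps of 500 kb or more, the score classes, the sorting of start sites by lists and by marks, pMCM2 per H4K16ac peak, chromosomes of like H4K16ac density, the remarks on chromosomes 4, 7, 13 and X, and the reference of the other 21 chromosomes.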

Additional observations from a re-analysis of the deposited data

How the results depend on the processing

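All values rest on 1 library per group, so the alternatives show how the processing moves a value and not how cultures differ. Over 91 results and 371 alternatives, 11 changed direction. HCT116 pMCM2 density relative to the genome was 0.293 on chromosome 3 and 0.324 on chromosome 18 by covered length, 0.451 and 0.493 with peaks within 1 kb merged, 0.368 and 0.390 in the higher-scoring 50% and 0.337 and 0.360 in the highest-scoring 25%. Relative to chromosomes 1 and 12 (0.312) it was 0.325 over the length from first to last peak, 0.183 by covered length, 0.337 merged, 0.243 and 0.212 by score, and 0.416 against the other 21 chromosomes. With a sparse limit of 0.33, 29.6% of bins were sparse, where 5.45% of all genome bins were.

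The share of start sites with pMCM2, relative to chromosomes 1 and 12, moved for the depleted, wild-type rescue, T530A rescue and aphidicolin lists, in that order, to 0.298, 0.277, 0.279 and 0.281 with 200 bp around middles. It was 0.328, 0.322, 0.319 and 0.310 with the higher-scoring 50% of pMCM2, 0.531, 0.531, 0.512 and 0.472 in the higher-scoring 50% of start sites, and 0.525, 0.532, 0.520 and 0.494 against the other 21 chromosomes.

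Per kb, the pMCM2 median percentile of chromosomes 3 and 18 minus that of 1 and 12 turned from -12.8 to 14.7. It also turned, to 3.44, for H4K16ac, and for K562 pMCM2 to 2.49 (G1), 1.07, 1.12 and 1.15 (the early, middle and late fractions of S) and 1.08 (G2). On chromosome 18, density relative to the genome crossed 1 for depleted start sites merged within 1 kb (1.002), for K562 middle S (1.005) and late S (1.01) without the chromosome ends, and for K562 G2 in its highest-scoring 25% (0.897). The cause was not tested. No paired analysis was possible because each group has 1 library. The planned comparison of GC and CpG content was not run, since no hg19 sequence was used here.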
